A study of Mus musculus with 67 samples.

Results

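The genes described here are 40 genes of the G2 phase and mitosis, chosen by name from the bulk RNA-seq expression table, in which all 40 were found among 29579 listed genes. They were followed in 2 sets of mouse samples that were analysed separately: 18 libraries of freshly isolated small intestinal crypts and 49 libraries of organoids grown from such crypts. The crypts came from mice without irradiation (Normal) or from mice exposed to 12 Gy of irradiation and killed 1, 2, 3 or 5 days later, either without the drugs (IR) or with daily gavage of 40 mg/kg valproic acid (VPA) and 0.6 mg/kg EPZ6438 (IR+VE). The study used 8-week-old female mice for irradiation and took crypts for organoids from mice 6 to 12 weeks old, and each of the 9 crypt groups had 2 libraries. VPA inhibits histone deacetylases and EPZ6438 inhibits EZH2, the enzyme that methylates lysine 27 of histone H3. Organoids were grown in ENR medium, which holds EGF, Noggin and R-Spondin 1 (7 libraries), or in 8C medium, which holds LDN193189, GSK-3 Inhibitor XV, Pexmetinib, VPA at 500 µM, EPZ6438 at 2 µM, bFGF, EGF and medium conditioned by R-Spondin 1 cells (7 libraries). The other media were 8C without both drugs (8C-VE, 7 libraries), without VPA (8C-V, 6), without EPZ6438 (8C-E, 7), without EGF, Pexmetinib, the GSK-3 inhibitor or bFGF (3 each), and ENR with both drugs added (ENR+VE, 3). The organoid libraries carry no label of irradiation. The labels do not say whether replicates came from separate mice or cultures. The study's legends count the expression replicates in mice, but for some groups only, and for organoids they name fewer mice than the larger groups have libraries, so p-values measure the spread between libraries of which some may share a mouse.

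Cells enter mitosis when cyclin B binds and activates the kinase CDK1, after CDC25 phosphatases have removed its inhibitory phosphates. The transcription factor FOXM1 and the MuvB complexes turn on a shared programme of genes late in the cycle, and the anaphase-promoting complex, with its activator CDC20, ends mitosis by marking cyclin B and securin for destruction. In the small intestine these transcripts mark the dividing stem cells and transit-amplifying cells of the crypt, which are lost after a high dose of irradiation and return when surviving cells regrow the crypt. In bulk samples fewer dividing cells and less RNA per dividing cell cannot be told apart.

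The promoters are shown because late cell cycle genes are known for 2 short motifs near their start sites, CCAAT, which the factor NF-Y binds, and TTTGAA, the cell cycle genes homology region. RefSeq start sites (GRCm38.p6) gave windows of 300 bases, 250 before and 50 from the start on, for 33 of the 40 members and for 27025 genes in all, 1 window a gene. Both motifs were searched on both strands, as TTTGAA or its reverse complement TTCAAA and as CCAAT or its reverse complement ATTGG; the 2 motifs can overlap by 1 letter. TTTGAA was found in 24 of 33 member windows (72.7%) against 18.1% of all windows, and CCAAT in 24 of 33 (72.7%) against 37.9%. At least 1 copy of each stood in 20 member windows (60.6%) against 7.12% of all windows. Of the other mitosis genes listed for comparison, 28 of 55 windows held TTTGAA (50.9%), 36 held CCAAT (65.5%) and 20 held both (36.4%). Of the S phase genes, 4 of 27 windows held TTTGAA (14.8%) and 16 held CCAAT (59.3%). The windows printed here are 150 bases each on the minus strand, outside the transcribed gene, written 5′ to 3′ with both motifs in capitals.
Cdk1, GRCm38.p6 chr10:69352939-69353088: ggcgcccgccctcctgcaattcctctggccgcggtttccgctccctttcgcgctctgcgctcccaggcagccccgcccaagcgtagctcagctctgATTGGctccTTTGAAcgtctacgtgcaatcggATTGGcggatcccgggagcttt
Ccnb2, GRCm38.p6 chr9:70421555-70421704: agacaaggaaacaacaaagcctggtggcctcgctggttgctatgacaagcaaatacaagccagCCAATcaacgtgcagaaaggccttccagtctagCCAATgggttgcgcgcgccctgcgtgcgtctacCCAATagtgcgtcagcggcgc
Ccnb1, GRCm38.p6 chr13:100786571-100786720: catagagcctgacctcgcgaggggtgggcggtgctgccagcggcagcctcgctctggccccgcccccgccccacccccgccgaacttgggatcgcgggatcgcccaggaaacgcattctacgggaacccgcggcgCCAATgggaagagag
Cdc20, GRCm38.p6 chr4:118437353-118437502: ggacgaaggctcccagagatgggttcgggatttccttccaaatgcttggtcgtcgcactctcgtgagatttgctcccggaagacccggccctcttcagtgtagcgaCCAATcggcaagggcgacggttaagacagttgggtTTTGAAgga
The Cdk1 window held TTTGAA with a reversed CCAAT on either side of it, and the Ccnb2 window held 3 forward copies of CCAAT whose first bases are at -87, -54 and -21, counted from the base just before the start as -1. Cdc20 held CCAAT at -53 and TTTGAA at -18. Outside the printed bases the 300-base windows also held TTTGAA at -167 and 5 for Ccnb2, CCAAT at -8 for Cdc20, and TTTGAA at -15 with a reversed CCAAT at -208 for Cdk1. Ccnb1 had CCAAT at -99 and -67, of which the first is printed, and no TTTGAA in its 300 bases. A match is a run of letters and not a measured binding site.

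Levels are in TPM (transcripts scaled to a constant library total), which divide the reads of a library among all genes, so that a rise of 1 class of transcripts lowers all others. The 13 mitochondrial protein-coding genes took 12.7% to 18.1% of TPM in the Normal crypts, 29.7% to 31.8% on day 1 after irradiation alone, 32.6% to 39.9% on day 2, 37.9% to 48.4% on day 3 and 11.8% to 12.3% on day 5. With the drugs they took 17.4% to 23.4%, 26.3% to 29.2%, 25.4% to 41.5% and 10.6% to 15.1% on the same days, and 1.52% to 6.64% in the organoids. The short gene mt-Atp8 alone was listed at 52862 TPM or more in every crypt library and at 14.8 TPM or less in every organoid library, so crypt and organoid levels were not compared. Each comparison of 2 crypt groups is therefore given with the median change of all 10802 genes tested, and with its result after quantile normalization, after scaling to the 75th percentile and after removing mitochondrial genes. All 8 epithelial markers were present in every group, while the 12 immune markers summed to 142 to 231 TPM in Normal crypts and to 4.79 to 9.56 TPM on day 5 after irradiation alone. Read depth is unknown, since the table holds no counts. A gene is called when its limma adjusted p is under 0.05 and it changed at least 2-fold on the scale of log2(TPM + 1), which understates changes of low genes.

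**Figure D1:**
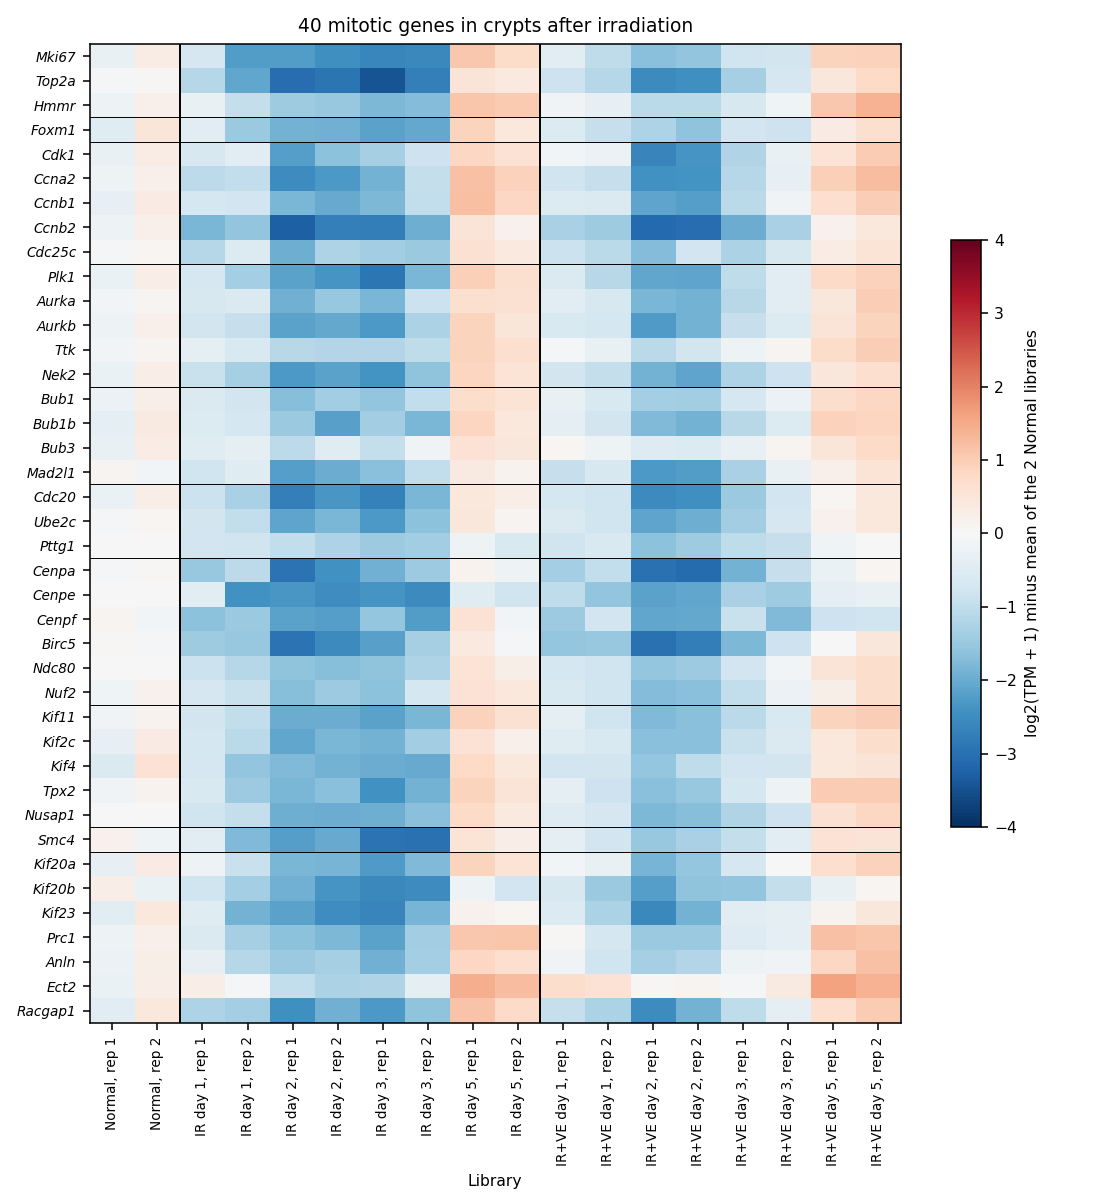
Level of each of the 40 genes (rows, grouped by role) in each of the 18 crypt libraries (columns), as log2(TPM + 1) minus the mean of the 2 Normal libraries. Blue, below Normal, deepens to days 2 and 3 after irradiation, and 36 of the 40 genes are above the Normal mean on day 5 after irradiation alone.

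The first question of the time course was how the mitotic genes moved after irradiation alone. Their mean level was lowest on days 2 and 3 and above that of both Normal libraries on day 5. Over the 40 genes, the mean of log2(TPM + 1) was 3.61 and 3.95 in the 2 Normal libraries, 3.04 and 2.64 on day 1, 1.78 and 1.87 on day 2, 1.75 and 2.21 on day 3, and 4.45 and 4.16 on day 5. No member was under 1 TPM in the Normal libraries, whereas 14 were in each day 2 library and 17 and 12 were in the day 3 libraries. None was under 1 TPM on day 5, when 36 members were above their Normal mean and Cenpe, Pttg1, Kif20b and Cenpa below it. Cenpe, a kinetochore motor, was furthest below, at 3.30 and 2.45 TPM against 5.03 and 4.95 in Normal crypts, and was not called (-0.64 ± 0.42 SE, adjusted p = 0.27). On the mean log2 scale the day 2 and day 3 libraries did not overlap the other groups of the untreated course, and those of day 2 and day 3 overlapped each other.

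The comparisons with Normal share the same 2 Normal libraries. On day 1, 15 members were called lower and none higher, while 6.92% of all genes tested were called in either direction and 5.48% lower. The median change of the members was -0.93 against -0.36 for all genes, and it was -0.54, -0.59 and -0.71 under the other 3 scalings, under which the medians of all genes were 0.00, -0.01 and -0.12. The count depended on the scaling, with 4, 3 and 3 members called against 1.78%, 1.63% and 1.74% of all genes lower, and on single libraries, since it was 3 without either Normal replicate 2 or IR_day1 replicate 2. It was 2 when these groups were compared alone and 0 with crossed replicate pairs, a fit that also held these groups alone and so had fewer libraries. Ccnb2, Top2a and Birc5 were called lower under all 4 scalings, and the largest changes were -1.70 for Ccnb2 and -1.61 for Top2a. The smallest were those of Ect2 (0.09) and Bub3 (-0.42), neither of which was called.

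On day 2, 39 of the 40 members were called lower, against 26.2% of all genes called lower and 30.8% called in either direction. Their median change was -1.96 against -0.61 for all genes. It was -1.41 under quantile normalization, with 32 members called against 7.77% of all genes lower, -1.56 under 75th percentile scaling, with 36 called against 9.74%, and -1.77 without mitochondrial genes, with 37 called against 12.5%. The same 32 members were called under all 4 scalings. Bub3 was the only member not called, and the smallest change after it was that of Pttg1 (-1.11).

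Markers of other cells moved over the same days, and their part in these changes was not tested. The 7 crypt base stem cell markers summed to 241 to 452 TPM in Normal crypts, 60.3 to 86.1 on day 1, 30.5 to 37.5 on day 2, 25.3 to 32.6 on day 3 and 158 to 214 on day 5 after irradiation alone, with 7, 6, 6, 5 and 7 of them at a mean of at least 1 TPM. The 8 enterocyte markers, all at that mean throughout, summed to 7560 to 14458, 18224 to 20208, 33096 to 41231, 2442 to 8406 and 11616 to 13834 TPM in the same order. The 6 Paneth markers, also all at that mean, summed to 12438 to 30414, 28970 to 29557, 6393 to 9526, 13397 to 23854 and 7310 to 8074 TPM. The 6 goblet markers, all at that mean, summed to 8385 to 9881, 12812 to 14246, 11070 to 14935, 7686 to 7979 and 8275 to 9846 TPM. The 6 enteroendocrine markers, with 6, 5, 5, 5 and 5 at that mean, summed to 339 to 459, 357 to 641, 395 to 478, 216 to 337 and 88.4 to 148 TPM. The stem cell sums were thus low on the days on which the members were low, whereas the enterocyte sums were highest on day 2 and 1 of the 2 day 3 sums was below both Normal ones. The 12 immune markers summed to 44.4 to 47.1 TPM on day 2, with 9 at that mean in Normal crypts and 6 on day 2.

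On day 3, 38 members were called lower and none higher, but 51.3% of all genes were also called lower and 53.8% were called in either direction. The members' median was -1.78 against -1.03 for all genes. With quantile normalization 12 members were called lower, with 75th percentile scaling 18 and without mitochondrial genes 30, against 12.2%, 18.3% and 30.2% of all genes, and the members' medians were -0.69, -0.92 and -1.37. Top2a (-3.09) and Smc4 (-2.98) had the largest changes and Bub3 (-0.56) and Ect2 (-0.79) the smallest. Cdk1, Bub3, Ect2 and Nuf2 changed sign under at least 1 of the other scalings.

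**Figure D2:**
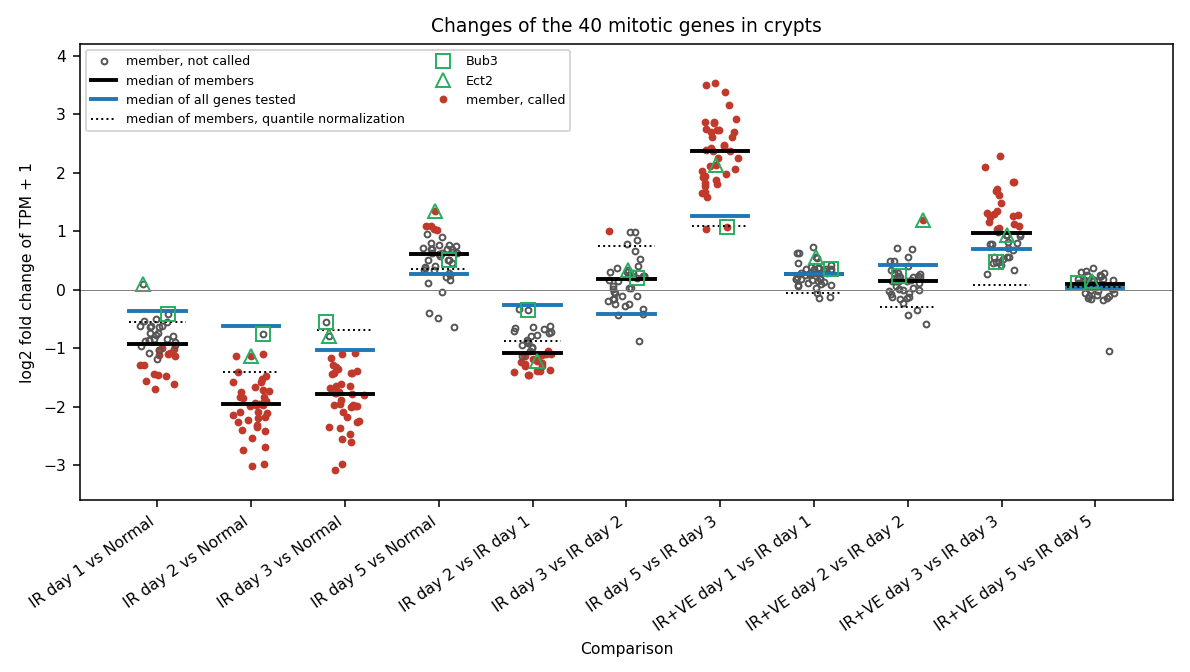
Log2 fold change of TPM + 1 for each of the 40 genes (points; filled red where called) in the 11 crypt comparisons, with the median of the genes (black), the same median after quantile normalization (dotted) and the median of all 10802 genes tested (blue). On day 2 after irradiation the median of the members, -1.96, lies well below that of all genes, -0.61, whereas in IR+VE against IR on day 3 the medians are 0.98 and 0.69 and the dotted one is 0.08.

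The proliferation marks fell on days 2 and 3. Mki67, which coats the surface of mitotic chromosomes and is the gene of the Ki-67 antigen (mm10 chr7:135689784-135716361, minus strand), stood at 4.29 and 7.14 TPM in Normal crypts, 3.08 and 0.39 on day 1, 0.39 and 0.19 on day 2, 0.07 and 0.095 on day 3 and 12.8 and 9.82 on day 5. Its day 3 change was -2.60 ± 0.38 (SE, adjusted p = 3.4e-05), and every day 2 and day 3 library was below every Normal and day 5 library. Top2a, the topoisomerase that untangles sister chromatids (mm10 chr11:98992943-99024189, minus strand), went from 31.5 and 33.1 TPM to 14.2 and 6.82, 3.06 and 3.38, 2.04 and 4.04 and 46.2 and 42.8 on days 1, 2, 3 and 5. It was lower by 2.98 ± 0.31 (SE, adjusted p = 9.7e-06) on day 2. Hmmr, which binds microtubules at the spindle poles, was lower by 1.76 ± 0.25 (SE, adjusted p = 3.2e-05) on day 3, but was not called under all 4 scalings.

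Foxm1, the transcription factor of the G2 programme, was low throughout. It was at 2.51 and 5.92 TPM in the Normal libraries, 2.64 and 0.78 on day 1, 0.33 and 0.3 on day 2, 0.12 and 0.19 on day 3 and 8.05 and 5.55 on day 5, so that the Normal libraries differed by over 2-fold between themselves. All day 2 and day 3 libraries lay below them, with a change of -1.90 ± 0.35 (SE, adjusted p = 0.00063) on day 2.

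Cdk1 and the cyclins had their lowest mean on day 2, not day 3. Cdk1, the kinase that drives entry into mitosis, stood at 60.2 and 92.7 TPM, then 47.2 and 55.4 on day 1, 15.4 and 23.1 on day 2, 29.2 and 41.3 on day 3 and 133 and 112 on day 5. Its change from Normal was -1.93 ± 0.30 (SE, adjusted p = 0.00022) on day 2 and -1.08 ± 0.30 (SE, adjusted p = 0.0049) on day 3, and the 2 days did not overlap. Day 3 was below Normal under 3 of the scalings and 0.06 above it under 75th percentile scaling. Ccna2, the cyclin of S phase and G2, went from 23.3 and 31.8 TPM to 12.6 and 13.4, 3.97 and 4.79, 6.67 and 13.6 and 62.1 and 52.0 on days 1, 2, 3 and 5, a change of -2.40 ± 0.30 (SE, adjusted p = 4.2e-05) on day 2. Ccnb1, the mitotic cyclin that partners CDK1, was at 20.9 and 33.6 TPM and then 15.8 and 15.3, 6.78 and 5.85, 6.86 and 13.0 and 63.0 and 47.8. Ccnb1 was lower on day 2 by 1.92 ± 0.32 (SE, adjusted p = 0.00033), and the 2 groups were far apart. Ccnb2, the second B-type cyclin, had the largest day 2 change of the 40, -3.01 ± 0.29 (SE, adjusted p = 4.7e-06). Its levels were 42.2 and 55.7 TPM in Normal crypts and 13.0 and 15.6, 4.14 and 6.38, 6.34 and 11.9 and 69.6 and 54.6 on the 4 days. Cdc25c, the phosphatase that activates CDK1, was scarce, at 3.83 and 4.40 TPM in Normal crypts and 1.32 and 2.48, 0.33 and 1.18, 0.95 and 0.83 and 6.75 and 5.75 after irradiation. It was lower by 1.58 ± 0.33 (SE, adjusted p = 0.0016) on day 2, but was not called under all 4 scalings.

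All 5 mitotic kinases were called lower on days 2 and 3, against 26.2% and 51.3% of all genes, and on day 3 Plk1 alone of them was called under all 4 scalings. Plk1, which acts at centrosomes and kinetochores, was at 16.5 and 23.9 TPM in Normal crypts and 12.1 and 7.09, 3.73 and 3.07, 1.82 and 4.83 and 39.7 and 31.4 on days 1, 2, 3 and 5, and its day 2 change was -2.25 ± 0.34 (SE, adjusted p = 0.00016). Aurka, the Aurora kinase of the spindle poles, went from 17.5 and 20.2 TPM to 11.6 and 12.3, 4.25 and 5.92, 4.54 and 9.90 and 30.0 and 29.2, a day 2 change of -1.72 ± 0.30 (SE, adjusted p = 0.00051). Aurkb, the kinase of the chromosomal passenger complex, was at 12.8 and 17.6 TPM and then 8.56 and 7.40, 2.66 and 2.84, 2.25 and 5.65 and 28.8 and 21.5. Aurkb was lower by 2.10 ± 0.30 (SE, adjusted p = 0.00012) on day 2. Nek2, which separates centrosomes, was at 9.01 and 13.3 TPM and then 5.50 and 3.81, 1.45 and 1.70, 1.31 and 2.96 and 20.7 and 16.5, lower by 2.22 ± 0.29 (SE, adjusted p = 4.9e-05) on day 2. Ttk, the checkpoint kinase MPS1, was lower by 1.13 ± 0.22 (SE, adjusted p = 0.0011) on the same day, but was not called under all 4 scalings.

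The spindle checkpoint genes held the member with the smallest changes from Normal on days 2 and 3. Bub3, which carries BUB1 and BUBR1 to kinetochores (mm10 chr7:131560222-131571895, plus strand), was at 25.8 and 38.6 TPM in Normal crypts and 22.4 and 24.3, 14.8 and 22.4, 15.6 and 28.3 and 47.2 and 43.7 on days 1, 2, 3 and 5. Its day 2 change was -0.76 ± 0.28 (SE, adjusted p = 0.033), short of 2-fold and close to the -0.61 of the median gene, and its day 3 change of -0.56 became 0.48, 0.57 and 0.07 under the other scalings. The other 3 checkpoint genes, Bub1, Bub1b and Mad2l1, were called lower on both days, against 26.2% and 51.3% of all genes, Mad2l1 by 2.10 ± 0.30 (SE, adjusted p = 0.00012) on day 2, but none of them on day 3 under all 4 scalings.

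Cdc20 and Ube2c, which activate the anaphase-promoting complex and supply its ubiquitin, were among the most abundant members. Cdc20 was at 46.0 and 67.1 TPM in Normal crypts and 29.9 and 22.3, 7.53 and 10.2, 7.65 and 15.0 and 74.0 and 67.3 on the 4 days, a day 2 change of -2.54 ± 0.30 (SE, adjusted p = 2.7e-05). Ube2c was at 122 and 138 TPM and then 77.8 and 65.6, 29.2 and 35.9, 25.8 and 41.2 and 179 and 140.5, a day 2 change of -1.97 ± 0.25 (SE, adjusted p = 4.9e-05). For both genes every library of days 1 to 3 was below the Normal libraries. Pttg1, the securin that holds separase inactive, moved less. It was at 29.5 and 28.5 TPM in Normal crypts, 14.1 and 11.9 on day 2, 9.93 and 10.3 on day 3 and 25.1 and 18.8 on day 5, with day 5 still below both Normal libraries but not called (-0.40 ± 0.19 SE, adjusted p = 0.14).

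All 6 centromere and kinetochore genes were called lower on days 2 and 3, against 26.2% and 51.3% of all genes. On day 2 all of them but Nuf2 were called under all 4 scalings. On day 3 Cenpe alone of them was called under all 4, and Nuf2 changed sign. Birc5, or survivin, a subunit of the passenger complex, went from 78.3 and 73.8 TPM to 27.9 and 25.7, 9.02 and 12.2, 16.1 and 29.8 and 101 and 72.3 on days 1, 2, 3 and 5. It was lower by 1.47 ± 0.31 (SE, adjusted p = 0.0095) on day 1 and by 2.74 ± 0.31 (SE, adjusted p = 1.9e-05) on day 2. Cenpa, the histone H3 variant of centromeres, was at 100.3 and 107 TPM in Normal crypts, 12.4 and 18.7 on day 2 and 26.8 and 37.4 on day 3. It was the only member called higher from day 2 to day 3 (1.00 ± 0.30 SE, adjusted p = 0.02), where 0.954% of all genes were called higher and 18.6% lower, or 19.5% in either direction. Over the 40 members the median day 2 to day 3 change was 0.19, against -0.42 for all genes, and under the other scalings it was 0.75, 0.57 and 0.39 with 7, 7 and 5 members called higher, against 4.98%, 5.72% and 2.12% of all genes. The Cenpa call was lost without IR_day2 replicate 1 or IR_day3 replicate 2.

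The motor, condensin and cytokinesis genes were also lower on day 2. Kif11, Kif2c, Kif4, Tpx2 and Nusap1, which build and move the spindle, were called lower on both days, against 26.2% and 51.3% of all genes, with day 2 changes between -1.99 and -1.74, and Kif4 and Tpx2 alone of these on day 3 under all 4 scalings. Smc4, a core subunit of both condensins, was at 13.2 and 10.3 TPM in Normal crypts, 1.77 and 2.10 on day 2 and 0.62 and 0.59 on day 3, lower by 2.98 ± 0.34 (SE, adjusted p = 4.6e-06) on day 3. All 7 cytokinesis genes were called lower on day 2, against the same 26.2% of all genes, but Anln and Ect2 not under all 4 scalings. Ect2, which activates RhoA at the cleavage furrow, stood at 5.99 and 9.12 TPM in Normal crypts and 9.11 and 6.94, 3.22 and 2.52, 2.67 and 5.43 and 22.0 and 18.8 on days 1, 2, 3 and 5. Its day 1 libraries overlapped the Normal ones, and it was lower by 1.13 ± 0.28 (SE, adjusted p = 0.0044) on day 2.

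**Figure D3:**
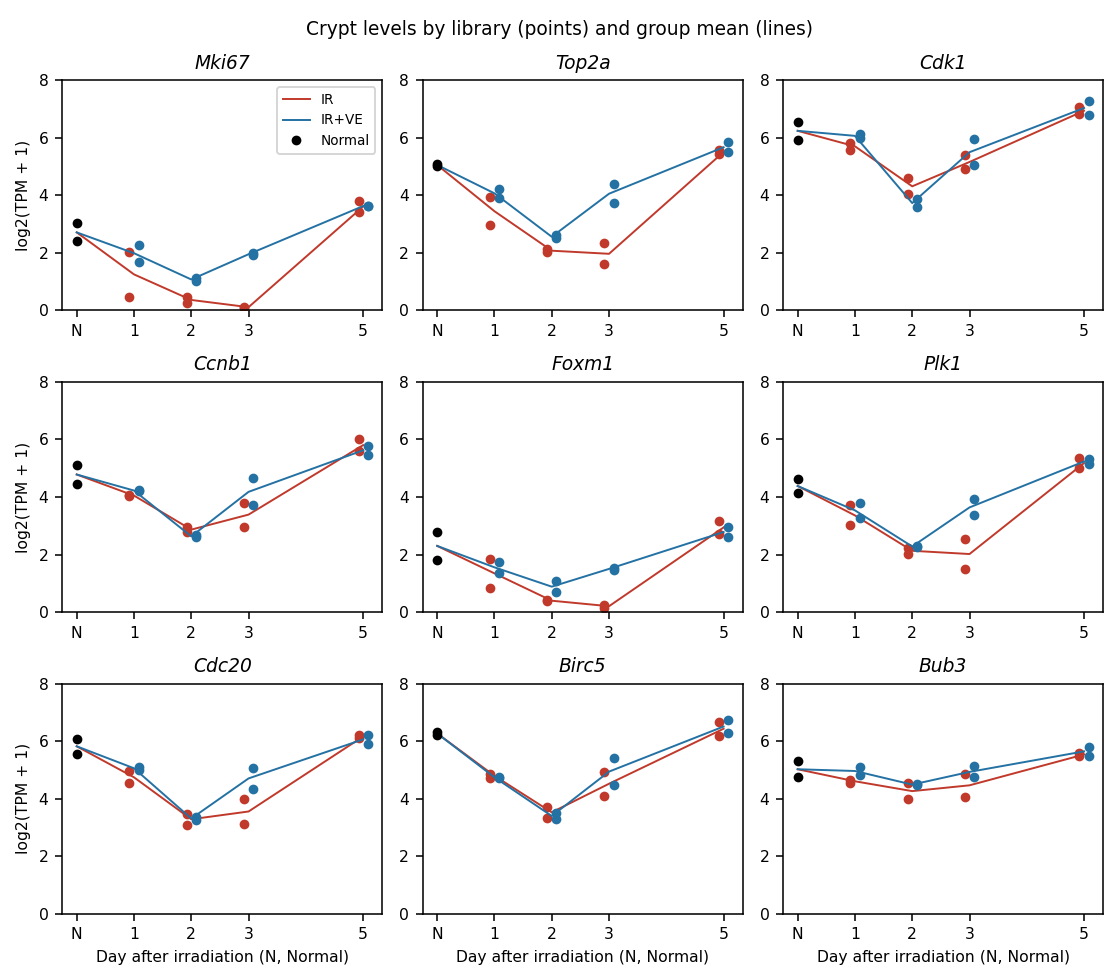
Level of 9 members as log2(TPM + 1) by day after irradiation, in Normal crypts (black), after irradiation alone (red) and with VPA and EPZ6438 (blue); points are libraries and lines join group means. Cdk1 and Birc5 are lowest on day 2, and Mki67 and Foxm1 are near 0 on days 2 and 3 without drugs.

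The next interval was the return from day 3 to day 5. All 40 members were called higher on day 5 than on day 3, but so were 62.6% of all genes, and 65.2% were called in either direction. The members' median was 2.37 against 1.27 for all genes. With quantile normalization 21 members were called, with 75th percentile scaling 29 and without mitochondrial genes 36, against 12.2%, 18.1% and 35.9% of all genes called higher, and the members' medians were 1.09, 1.26 and 1.84. Across all genes the change correlated with transcript length (Pearson r = 0.449), and 39 members were called after removal of the length trend. Top2a rose by 3.54 ± 0.31 (SE, adjusted p = 5.7e-07) and Mki67 by 3.50 ± 0.38 (SE, adjusted p = 2.2e-06), the largest changes. Pttg1 (1.03) and Bub3 (1.07) had the smallest, which became -0.39 and -0.21 under quantile normalization and -0.30 for each under 75th percentile scaling.

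Against Normal, 5 members were called higher on day 5, a share near the 10.2% of all genes called higher (15.8% in either direction). They were Ect2 (1.34 ± 0.28 SE, adjusted p = 0.0029), the microtubule bundler Prc1 (1.10 ± 0.31 SE, adjusted p = 0.017), Hmmr (1.08 ± 0.25 SE, adjusted p = 0.0063), Ccna2 (1.03 ± 0.30 SE, adjusted p = 0.021) and Ccnb1 (1.02 ± 0.32 SE, adjusted p = 0.028). Ect2 alone was called under all 4 scalings. The members' median was 0.62 against 0.27 for all genes, and 0.36, 0.38 and 0.53 with 1, 1 and 3 members called under the other scalings, against 5.41%, 4.95% and 7.55% of all genes higher. Across all genes tested, which share these libraries, the change correlated with transcript length (Pearson r = 0.372), and 3 members were called after removal of the length trend of each library. Without Normal replicate 1 a single member was called, without either day 5 library 2 were, and without Normal replicate 2, the higher of the Normal libraries, 8 were. Cenpa (-0.03) and Kif23 (0.12) changed least.

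From day 1 to day 2 after irradiation alone, 20 members were called lower and none higher, against 3.01% of all genes lower and 5.18% in either direction. The members' median was -1.07 against -0.26, and all 40 members were negative under all 4 scalings, with medians of -0.88, -0.98 and -1.09 and 9, 18 and 19 called under the other 3, against 1.74%, 2.5% and 2.34% of all genes lower. Cdc20 and Mad2l1, the checkpoint protein that holds CDC20, both had the largest change, -1.46. The count fell to 4, 1 and 8 without IR_day1 replicate 1, IR_day2 replicate 1 and IR_day2 replicate 2, and to 0 when these 2 groups were compared alone.

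The other mitosis genes on the list, 62 of 68 of which were tested in crypts, are given beside the shares of all genes. On day 2, 45 were called lower and none higher, against 26.2% of all genes lower, with a median of -1.43. On day 5, 8 were called higher and none lower, a share near the 10.2% of all genes higher, with a median of 0.52. Of each group the 2 largest day 2 changes were those of Spc24 (-2.91) and Hjurp (-2.38) for kinetochores and centromeres, Bora (-2.31) and Incenp (-2.16) for the passenger complex, checkpoint and cohesion, and Ncapd2 (-3.50) and Ncapd3 (-1.73) for condensin. They were Kif22 (-2.73) and Kif15 (-2.06) for spindle and cytokinesis, and Pkmyt1 (-2.18) and Cks2 (-2.08) for entry and exit. Of the 33 S phase genes tested, 28 were called lower on day 2 (median -1.56, against 26.2% of all genes), led by the thymidine kinase Tk1 (-3.34) and the clamp loader subunit Rfc4 (-2.20), and 1, Tk1, on day 1. On day 3, 18 were called lower (median -1.11), a share near the 51.3% of all genes.

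The second question was whether the drugs moved the mitotic genes of irradiated crypts. On day 1 no member was called in limma, and none had an unadjusted p under 0.05, while 0.00926% of all genes were called. The members' median of 0.27 equalled the 0.27 of all genes, it was -0.06, 0.02 and 0.10 with no member called under the other scalings, and 21 members changed sign under another scaling. Leaving out IR_day1 replicate 1, 4 members were called. On day 2 a single member, Ect2, was called higher (1.20 ± 0.28 SE, adjusted p = 0.031), at 7.68 and 8.02 TPM with the drugs and 3.22 and 2.52 without, and 8.31% of all genes were called higher (8.38% in either direction). Across all genes the day 2 change correlated with transcript length (Pearson r = 0.432), and 1 member was called after removal of the length trend. The Ect2 call was lost under the other 3 scalings and without IR_day2 replicate 2 or either drug library. The members' median was 0.15 against 0.42 for all genes, and it was -0.29 under quantile normalization, -0.12 under 75th percentile scaling and 0.03 without mitochondrial genes.

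On day 3, 19 of the 40 members were called higher with the drugs and none lower, against 31.6% of all genes called higher and 31.7% in either direction. The members' median was 0.98 against 0.69 for all genes. The difference in level was shared by most genes: under quantile normalization the members' median was 0.08 and 4 members were called (7.02% of all genes higher), under 75th percentile scaling 0.46 and 12 (14.6%), and without mitochondrial genes 0.88 and 16 (26.5%). Mki67, Top2a, Kif23 and Smc4 were called under all 4 scalings, while 19 members changed sign under at least 1. Without IR_day3 replicate 1, 10 members were called, and without IR+VE_day3 replicate 2, 12, whereas 29 were called without either IR_day3 replicate 2 or IR+VE_day3 replicate 1.

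Smc4 had the largest drug change on day 3, 2.29 ± 0.34 (SE, adjusted p = 0.00029), at 5.53 and 8.43 TPM with the drugs and 0.62 and 0.59 without. Top2a followed (2.09 ± 0.31 SE, adjusted p = 0.00031), at 12.3 and 19.9 against 2.04 and 4.04 TPM. Mki67 was at 2.78 and 2.97 TPM with the drugs, a change of 1.84 ± 0.38 (SE, adjusted p = 0.0014) over the near-absent levels without them. In these genes the 2 groups stood far apart. Kif23, a motor of the midzone of the dividing cell, was at 19.8 and 20.4 TPM against 3.47 and 6.74 (1.84 ± 0.43 SE, adjusted p = 0.0029). Plk1 was at 9.26 and 14.1 against 1.82 and 4.83 TPM (1.62 ± 0.34 SE, adjusted p = 0.0016) and Foxm1 at 1.88 and 1.79 against 0.12 and 0.19 (1.30 ± 0.35 SE, adjusted p = 0.0065), and neither was called under quantile normalization. Of the 7 cytokinesis genes, 6 were called, against 31.6% of all genes called higher, and of these Kif23 alone under all 4 scalings.

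None of the cyclins, Cdk1 and Cdc25c was called on day 3. Cdk1 was at 32.2 and 60.7 TPM with the drugs and 29.2 and 41.3 without (0.34 ± 0.30 SE, adjusted p = 0.36), and the groups overlapped. Cenpa changed least (0.28), with Cdk1 next. Ccna2 was at 11.7 and 21.7 against 6.67 and 13.6 TPM, Ccnb1 at 12.1 and 24.0 against 6.86 and 13.0, and Ccnb2 at 11.6 and 19.1 against 6.34 and 11.9. Each of these 3 cyclins overlapped between the groups and turned negative under quantile normalization. Birc5 was at 21.0 and 41.9 against 16.1 and 29.8 TPM, Aurka at 8.12 and 13.4 against 4.54 and 9.90, and Bub3 at 25.8 and 33.8 against 15.6 and 28.3. These 3 genes overlapped too. Aurkb at 7.38 and 9.86 TPM (1.04 ± 0.30 SE, adjusted p = 0.011) and Cdc20 at 19.3 and 32.6 (1.15 ± 0.30 SE, adjusted p = 0.006) were called on the deposited scale but under no other scaling. Ube2c at 49.2 and 80.3 TPM (0.93 ± 0.25 SE, adjusted p = 0.0073) and Nek2 at 4.09 and 5.78 (0.96 ± 0.29 SE, adjusted p = 0.012) were short of 2-fold, as was Cdc25c at 1.13 and 2.26 (0.48 ± 0.33 SE, adjusted p = 0.24).

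Other measures moved with the day 3 difference, and their part in it was not tested. The mitochondrial share is given above. Across the 10802 genes tested, which share the same 4 libraries, the day 3 drug change correlated with transcript length (Pearson r = 0.438), and the median exon length was 5754 bases for the 19 members called and 4363 bases for the 21 not called. After removal of the length trend of each library, 18 members were called. The 8 epithelial markers, all at a mean of at least 1 TPM, summed to 8135 to 8552 TPM with the drugs and 4333 to 6435 without, and the 6 enteroendocrine markers, 5 at that mean in each group, to 364 to 462 and 216 to 337, neither with overlap. The 6 goblet markers overlapped, at 6439 to 8957 and 7686 to 7979 TPM. The 8 enterocyte markers summed to 3398 to 3589 TPM with the drugs and 2442 to 8406 without, the 6 Paneth markers to 24655 to 35247 and 13397 to 23854, and the 7 crypt base stem cell markers to 82.1 to 92.9 and 25.3 to 32.6, of which 7 and 5 had a mean of at least 1 TPM. The 12 immune markers summed to 42.5 to 67 and 31 to 79.8 TPM, with 8 and 6 at a mean of at least 1 TPM. The 10 mesenchymal, muscle and endothelial markers summed to 3.46 to 7.23 and 1.03 to 1.43 TPM, with 1 and 0 at that mean, and Cdh5 at 0 without the drugs.

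On day 5 no member was called between the drug and no-drug groups, 1 had an unadjusted p under 0.05, and 0.0185% of all genes were called. The median change was 0.09 against 0.03, and 0.05, 0.06 and 0.10 with no member called under the other scalings. Cdk1 was at 110.4 and 153 TPM with the drugs and 133 and 112 without, Top2a at 44.3 and 56.4 and 46.2 and 42.8, and Mki67 at 11.3 and 11.4 and 12.8 and 9.82. The largest change, that of the kinetochore protein gene Cenpf (-1.04 ± 0.33 SE, adjusted p = 1), was lower with the drugs, at 1.73 and 1.75 against 6.14 and 3.45 TPM. The earlier drug libraries held Mki67 at 3.85 and 2.25 TPM on day 1 and 1.04 and 1.18 on day 2, Top2a at 17.6 and 14.2 and 4.67 and 5.14, and Cdk1 at 69.0 and 63.3 and 11.1 and 13.6. So the low point of day 2 was present with the drugs as well: over the 40 members the mean log2(TPM + 1) was 1.90 and 2.04 on day 2 with the drugs, 2.79 and 3.25 on day 3, and 4.25 and 4.48 on day 5.

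The difference between days was tested directly. The drug change on day 3 exceeded that on day 5 for 14 members called, against 24.5% of all genes (24.6% in either direction), 0 under quantile normalization and 0 without IR_day3 replicate 1. Across all genes this difference correlated with transcript length (Pearson r = 0.412), and 9 members were called after removal of the length trend. No member was called for day 3 against day 1 or day 3 against day 2 in limma, although 14 and 20 had an unadjusted p under 0.05, and 0.148% and 0.0185% of all genes were called. The median differences were 0.93, 0.72 and 0.84 against day 5, day 1 and day 2, beside 0.66, 0.46 and 0.30 for all genes. In the same order they were 0.19, 0.14 and 0.53 under quantile normalization. They were 0.51, 0.45 and 0.71 under 75th percentile scaling and 0.92, 0.78 and 0.92 without mitochondrial genes. Of the members, 17, 11 and 3 changed sign under at least 1 other scaling. Without IR_day1 replicate 2, 12 members were called against day 1, and leaving out any 1 day 5 library gave 1 to 8 calls against day 5.

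In the organoids the question was which culture components moved the mitotic genes. No member was called in any of the 12 comparisons between media. Before these are given, the replicate numbers have to be described. The mean log2(TPM + 1) of the 40 members was 6.23 to 6.36 in 8C-VE libraries numbered 1 to 3 and 5.39 to 5.61 in those numbered 4 to 6, 6.15 to 6.41 and 5.44 to 5.66 in 8C-V, 6.13 to 6.31 and 5.61 to 5.73 in 8C-E, and 5.77 to 6.20 and 5.08 to 5.52 in 8C. In ENR the values were 5.77 to 5.90 and 5.61 to 5.68. In all 5 media, libraries 1 to 3 lay above libraries 4 to 6. Library 7 was at 5.83 in ENR, 5.99 in 8C-VE, 5.10 in 8C-E and 4.99 in 8C, the last 2 being the lowest of their groups. The mitochondrial genes took 4.69%, 5.47%, 6.64% and 6.31% of TPM in these 4 libraries and at most 3.81% in the other organoid libraries, and the part of this in the levels was not tested. The labels do not say what a number stands for, nor to which of the 8C libraries the 3 libraries of each omission medium belong.

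**Figure D4:**
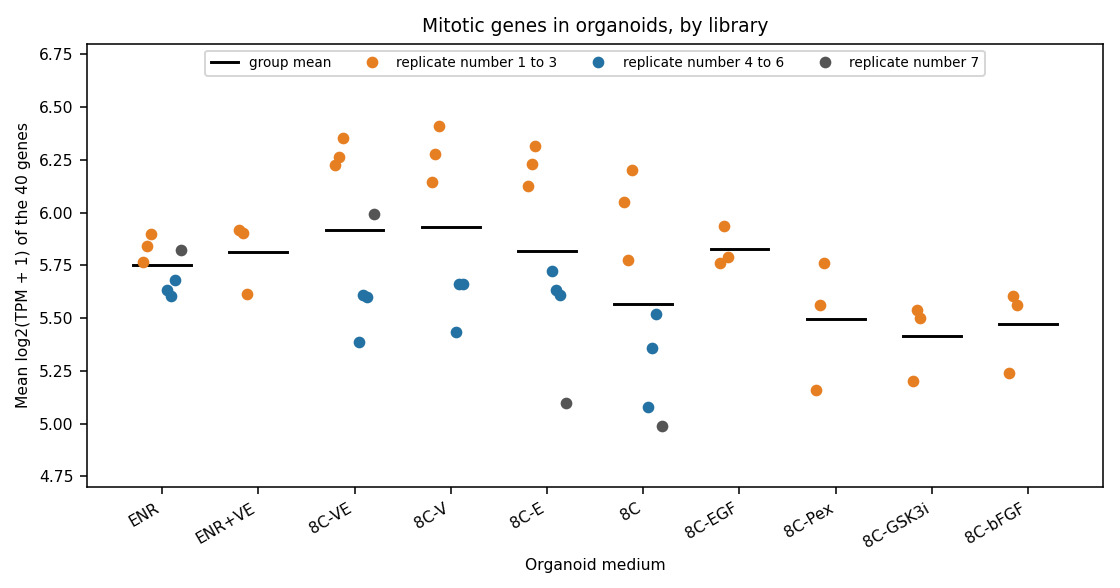
Mean log2(TPM + 1) of the 40 genes in each of the 49 organoid libraries (points, coloured by replicate number) by medium, with the group mean as a line; the axis does not start at 0. Libraries numbered 1 to 3 lie above those numbered 4 to 6 in ENR, 8C-VE, 8C-V, 8C-E and 8C.

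The comparisons share the 8C, 8C-VE and ENR libraries. Their p-values, SEs and intervals come from fits without the replicate number, so the shift between numbers adds to the spread within a group. Between 8C and ENR no member was called, 4 had an unadjusted p under 0.05, and 15.2% of all genes were called. The median change in 8C was -0.18 against 0.08 for all genes, but it was 0.13 over libraries 1 to 3 and -0.36 over libraries 4 to 6. The 95% intervals of all 40 members lay inside a 2-fold change in either direction, the lowest bound being -0.97 for Kif20b and the highest 0.98 for Pttg1. Aurka had an adjusted p under 0.05 with less than a 2-fold change (-0.46 ± 0.17 SE, adjusted p = 0.042). The largest changes were those of Pttg1 (0.51 ± 0.22 SE, adjusted p = 0.085) and Foxm1 (-0.50 ± 0.19 SE, adjusted p = 0.057), in opposite directions, and Cenpa (-0.00) and Hmmr (-0.01) were nearest 0.

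For 8C-VE against ENR no member was called, 5 had an unadjusted p under 0.05, and 3.19% of all genes were called. The median was 0.17 against 0.08 for all genes, 0.44 in libraries 1 to 3 and -0.13 in libraries 4 to 6. Ect2 (0.43) and Ndc80, a subunit of the microtubule-binding kinetochore complex (0.35 ± 0.10 SE, adjusted p = 0.048), had the largest changes, and Foxm1 (-0.01) and Plk1 (0.02) the smallest.

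Adding both drugs to the 8C base went with slightly lower values of nearly all members. For 8C against 8C-VE no member was called, 10 had an unadjusted p under 0.05 and 10.7% of all genes were called. The change was negative for 39 of 40 members, with a median of -0.36 against 0.01 for all genes, -0.28 in libraries 1 to 3 and -0.21 in libraries 4 to 6. Both of these smaller changes leave out library 7, whose member mean was 4.99 in 8C and 5.99 in 8C-VE. The scalings gave medians of -0.38, -0.35 and -0.36. Kif23 had an adjusted p under 0.05 with less than a 2-fold change (-0.78 ± 0.20 SE, adjusted p = 0.0099), at 16.1 to 38.6 (median 20.5) TPM in 8C and 30.4 to 55.9 (median 42.6) in 8C-VE, so the groups overlapped. Ect2 was next (-0.69), and Cdc25c (-0.09) and Racgap1 (-0.09) changed least. The 1 positive member was Pttg1 (0.46 ± 0.23 SE, adjusted p = 0.18). At these spreads 31 of the 40 intervals lay inside a 2-fold change. Cell type markers differed between the same groups, and their part was not tested. The 6 Paneth markers summed to 1174 to 4760 TPM in 8C and 9663 to 15281 in 8C-VE, without overlap. The 7 stem cell markers summed to 995 to 2522 and 1819 to 3492 TPM and the 8 enterocyte markers to 1997 to 5015 and 2668 to 6211, with overlap, and all of these markers had a mean of at least 1 TPM in both media. The 12 immune markers summed to at most 1.83 and 2.94 TPM and the 10 mesenchymal, muscle and endothelial ones to at most 5.55 and 1.48.

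The single drugs were compared with the same media. VPA added to the base (8C-E against 8C-VE) gave a median of -0.12 with no member called, none with an unadjusted p under 0.05 and 4.18% of all genes called. That median was -0.06 over libraries 1 to 3 and 0.13 over libraries 4 to 6, without library 7 (member means of 5.10 in 8C-E and 5.99 in 8C-VE). EPZ6438 added to the base (8C-V against 8C-VE) gave 0.04 with no member called, 2 under 0.05 and 3.22%, and -0.00 and 0.05 over the same numbers. EPZ6438 on top of VPA (8C against 8C-E) gave -0.26 with 1 member under 0.05 and 4.2% of all genes called, and VPA on top of EPZ6438 (8C against 8C-V) gave -0.38 with 10 members under 0.05 and 5.2%, again with no member called. Over libraries 1 to 3 and 4 to 6 the medians were -0.21 and -0.37 for 8C against 8C-E. For 8C against 8C-V they were -0.27 and -0.29. Library 7, the lowest of 8C at a member mean of 4.99, has no counterpart in 8C-V. In 8C against 8C-V, Ndc80 (-0.76 ± 0.24 SE, adjusted p = 0.049) and Kif23 (-0.75 ± 0.21 SE, adjusted p = 0.027) had the largest changes. The interaction of the 2 drugs was negative for 39 of 40 members with a median of -0.28, but no member was called, none had an unadjusted p under 0.05 and 0.581% of all genes were called. In ENR the drug pair (ENR+VE against ENR) gave a median of 0.03 (-0.03 and 0.13 against ENR libraries 1 to 3 and 4 to 6), no member called, 4 under 0.05 and 8.87% of all genes called, and the largest change was again that of Pttg1 (0.53 ± 0.22 SE, adjusted p = 0.13). The drug change in the 8C base minus that in ENR had a median of -0.42, with no member called, 1 under 0.05 and 0.58% of all genes called. The doses in ENR+VE are not given in the labels or methods, and its libraries carry numbers 1 to 3 only.

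Pttg1 stood apart from the other members in the organoids. It was positive in every comparison that added VPA, at 27.5 to 85.8 (median 51.5) TPM in 8C, 30.7 to 74.2 (median 45.9) in 8C-E, 19.0 to 51.9 (median 38.6) in 8C-V, 22.9 to 52.4 (median 33.1) in 8C-VE, 20.4 to 43.0 (median 38.7) in ENR and 47.6, 46.3, 55.3 in ENR+VE. Comparisons that did not add VPA were positive too, with Pttg1 at 0.08 in 8C against 8C-E. Pttg1, Cdc20 and Ube2c lay from 0.026 to 0.148 in 8C-V against 8C-VE and from 0.028 to 0.055 in 8C-VE against ENR. The 3 ENR+VE libraries of Pttg1 lay above all 7 ENR libraries, while the 8C-based groups overlapped, and none of these changes was called. Pttg1 also followed the mean of the 40 members least closely across the 49 organoid libraries (Pearson r = 0.499, against 0.684 for Bub3, the next, and 0.974 for Ttk, the closest). That mean includes the gene itself, and the libraries share groups and replicate numbers.

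**Figure D5:**
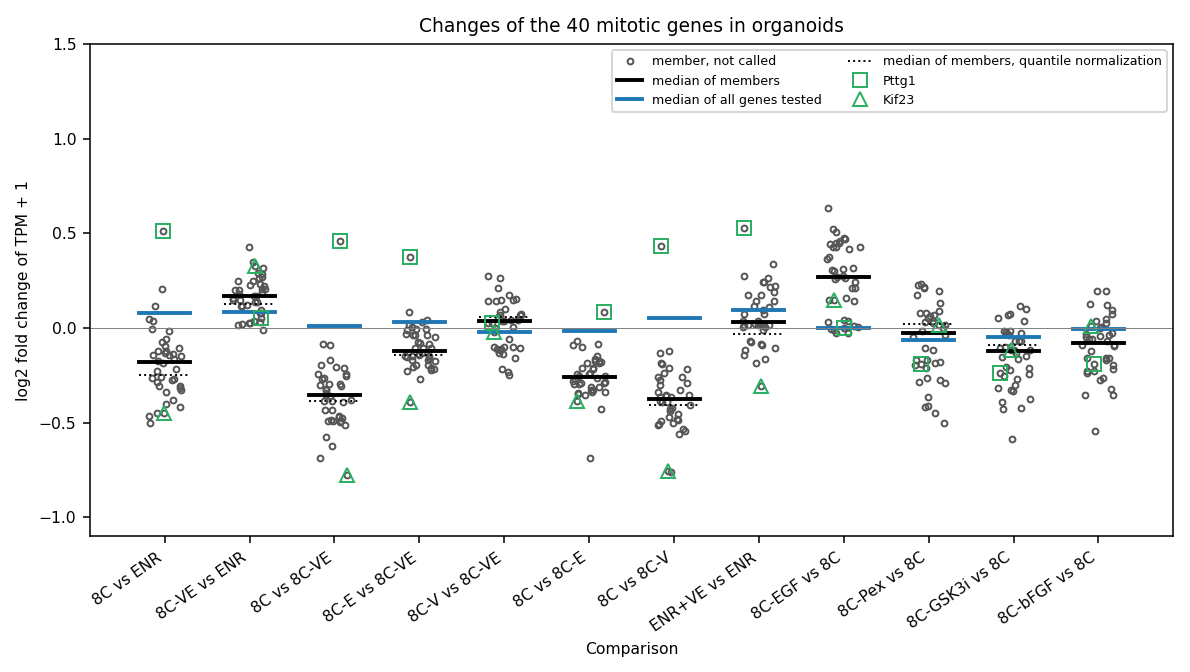
Log2 fold change of TPM + 1 for each of the 40 genes (points) in the 12 organoid comparisons, with the medians of the genes (black), of the genes after quantile normalization (dotted) and of all genes tested (blue). No point passes the test, most points of 8C against 8C-VE lie below 0, where Pttg1 (squares) lies above 0 and Kif23 (triangles) lowest.

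Omitting single components of 8C changed no member past the test. Without EGF the median was 0.27 against 0.00 for all genes, 2 members had an unadjusted p under 0.05, 0.451% of all genes were called, and Foxm1 (0.63) and Kif20a (0.52) changed most. Without Pexmetinib it was -0.03, without the GSK-3 inhibitor -0.12 and without bFGF -0.08, with no member under an unadjusted p of 0.05 and 0.482%, 0% and 0.00779% of all genes called. Kif20b, a cytokinesis kinesin, had the largest change in these 3, -0.50, -0.59 and -0.54. The medians depended on which 8C libraries served as controls. Against libraries 1 to 3 they were -0.18, -0.47, -0.59 and -0.50 for the 4 omissions in the order above, and against libraries 4 to 6 they were 0.53, 0.20, 0.11 and 0.14. Cell type markers differed from 8C in some of these media, and their part was not tested. Without EGF the enterocyte markers summed to 1098 to 1149 TPM and the Paneth markers to 5789 to 6700. In 8C they summed to 1997 to 5015 and 1174 to 4760 TPM, without overlap. The stem cell sums, 2324 to 3425 without EGF and 995 to 2522 in 8C, overlapped.

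The levels of single genes overlapped across media. Mki67 ranged over 71.8 to 159 (median 107) TPM in ENR, 67.4 to 170.1 (median 131) in 8C-VE, 67.1 to 152 (median 105) in 8C-V, 92.1 to 165 (median 115) in 8C-E and 56.2 to 180.0 (median 88.5) in 8C. Top2a was at 114 to 166 (median 137), 108 to 237 (median 186), 111 to 224 (median 155), 87.8 to 198 (median 137) and 74.0 to 203 (median 112) TPM in the same media. All these ranges overlapped. Cdk1 was at 67.7 to 88.4 (median 75.1), 74.4 to 117 (median 94.3), 88.7 to 129.9 (median 104), 51.7 to 113 (median 102) and 43.2 to 116 (median 86.4) TPM. For Ccna2 the values were 134 to 156 (median 147) in ENR and 71.5 to 182 (median 119) in 8C, for Ccnb1 86.9 to 109.9 (median 91.9) and 54.2 to 119.6 (median 86.5), and for Ccnb2 186 to 238 (median 224) and 119 to 276 (median 209.8). In each cyclin the ENR range lay inside the wider 8C range. Foxm1 was at 31.1 to 42.6 (median 34.3) TPM in ENR and 15.8 to 43.4 (median 23.4) in 8C, and Plk1 at 149.9 to 240.3 (median 199.9) and 96.8 to 231 (median 122). Aurka was at 76.9 to 86.0 (median 82.6) TPM in ENR and 33.4 to 79.3 (median 62.5) in 8C, and Aurkb at 93.7 to 111 (median 100.4) and 45.2 to 139 (median 99.8). The Aurka median was lower in 8C and the Aurkb medians nearly equal. Cdc20 was at 215 to 271 (median 235) TPM in ENR and 130.3 to 262 (median 221) in 8C, and Ube2c at 187 to 248 (median 205) and 99.4 to 282 (median 179.9). Birc5 was at 69.8 to 94.5 (median 77.3) and 38.2 to 125 (median 64.0) TPM, and Bub3 at 49.6 to 77.9 (median 66.2) and 29.6 to 74.1 (median 65.0). Cdc25c was at 18.3 to 31.0 (median 22.5) and 18.3 to 46.3 (median 23.4) TPM, and Nek2 at 51.8 to 61.9 (median 58.4) and 30.3 to 66.9 (median 47.1). None of these pairs separated.

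In the smaller groups Mki67 was at 91.3, 104, 83.2 TPM without EGF, 51.6, 97.6, 110.1 without Pexmetinib, 62.6, 85.9, 90.3 without the GSK-3 inhibitor and 88.1, 88.7, 93.4 without bFGF, and at 127, 132, 68.6 in ENR+VE. Cdk1 was at 109, 107, 109, 81.1, 87.1, 96.8, 66.1, 79.2, 84.9, 66.8, 87.4, 89.8 and 83.7, 82.1, 84.6 TPM in these media. All Cdk1 values lay inside the range of the 8C libraries, and 1 Mki67 value, in the medium without Pexmetinib, lay below it.

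The other mitosis genes and the S phase genes held no call in limma in any organoid comparison either, although 0 to 19 and 0 to 21 of them had an unadjusted p under 0.05. In 8C against 8C-VE the S phase genes had a median of -0.50, led by Cdc6, which loads the replicative helicase (-0.89), and the helicase subunit Mcm5 (-0.85). Without EGF they had a median of 0.62, led by Mcm2 and Mcm5 (0.88 each), 0.44 without Pexmetinib, 0.04 without the GSK-3 inhibitor and 0.19 without bFGF.

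The genes most like the members were ranked by correlation with the mean log2(TPM + 1) of the 40, as a description across libraries that share groups. Across the 18 crypt libraries and 10802 genes the 10 closest non-members were Hspa14, Dtl, Fbxo5, Suv39h1, Cdca8, E2f8, Ncapg, Rfc2, Ckap2l and Lmnb1, with Pearson r from 0.991 for Hspa14 to 0.986 for Lmnb1. Fbxo5, the inhibitor of the anaphase-promoting complex, Cdca8, a passenger subunit, the condensin subunit Ncapg and the spindle gene Ckap2l belong to the mitosis lists. Of the members, Nek2 and Kif2c followed the mean most closely (r = 0.994 each) and Cenpf (0.825) and Ect2 (0.859) least. Across the 49 organoid libraries and 12625 genes the closest were Ercc6l (r = 0.956), Shcbp1, Esco2, Cdca2, Nrf1, Set, Incenp, Dlgap5, Nup133 and Rad54l (0.936), of which Incenp and Dlgap5 are on the mitosis lists.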

How the data were processed

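Bulk RNA-seq libraries of total RNA, randomly primed and paired-end, were made and sequenced on an Illumina HiSeq system, per the labels. The authors trimmed reads with Trimmomatic 0.39, aligned them to mm10 with STAR 2.7.3a, counted them with featureCounts and deposited 1 table of TPM values; how counts became TPM, and the annotation, are not given in the sources used here. All 67 columns matched a sample title. Columns summed to 819346 to 910935 in crypts and 983801 to 988144 in organoids. Values were analysed as log2(TPM + 1) in limma 3.58.1 (R 4.3.3; lmFit, eBayes with trend and robust), over genes whose mean reached 1 TPM across the libraries fitted, with Benjamini-Hochberg adjustment over all of them. Crypts were fitted in 1 model of 9 groups, and organoid media in pairs. The model was tested on simulated data. All p-values are two-sided.

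The 40 members, the other mitosis and S phase lists and the named genes were chosen with earlier results of these data known. Named were 16 members with values in every library, the 2 members with the largest and the 2 with the smallest change per comparison, the 2 largest of each further list, and the 10 genes of most similar pattern (predicted genes skipped). Genes named for a call, a sign change or a separate pattern, such as Pttg1 in organoids, were chosen after their values were seen. Interaction tests, length trend removal and crossed replicate pairs were added after seeing the data. Gene positions and exon lengths came from GENCODE M21 (GRCm38). Same-numbered libraries deviated together, with every correlation over 0.1, in 8C-VE against ENR (lowest 0.31), 8C-E against 8C-VE (0.65), 8C-V against 8C-VE (0.69) and 8C against 8C-V (0.11). The closest library had the same number for 5 of 7, 7 of 7, 6 of 6 and 3 of 6 libraries in these comparisons. Levels also differed between numbers 1 to 3 and 4 to 6, so these correlations cannot show whether single libraries are paired. The labels do not say what the numbers mark. Promoters of Aurkb, Ccna2, Cdc25c, Foxm1, Kif20a, Smc4 and Tpx2 were not used here.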

Additional observations from a re-analysis of the deposited data

Results flagged for a closer look

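In 8C-E, replicate 7 lay far below the other 6 libraries for Foxm1, at 15.1 TPM, and for Bub3, at 29.4 TPM, where the gap to the nearest library exceeded the 95% limit of Dixon's test. The mitochondrial genes took 6.64% of TPM in that library and 1.81% to 3.00% in the other 6, and their part in these values was not tested. Of 85 such tests over named genes and groups these 2 passed, while chance passes about 1 in 20. The difference in the drug effect between day 3 and day 5 after irradiation was called for 14 of the 40 members by limma, against 24.5% of all genes called in the same direction, and for 0 without IR_day3 replicate 1.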

How the results depend on the processing

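Of the changes of named genes recomputed under each alternative, 3319 kept their direction and their side of the threshold, 176 lost and 51 gained a call, and 60 changed sign. The cause of these shifts was not tested, except that a minimum mean of 5 TPM leaves fewer members in the test. Of the counts of members called, 522 stayed within 1.5 times and 77 moved further. Counts that were 0 in both fits are among the 522, and every organoid comparison had a main count of 0. The 522 therefore do not measure how stable the counts above 0 are.

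Against Normal, day 1 gave 15 members and 4 under quantile normalization, 3 under 75th percentile scaling, 3 without mitochondrial genes, 7 with no minimum TPM, 2 when the groups were compared alone and 0 with crossed replicate pairs. Day 2 gave 24 with a minimum of 5 TPM, and day 3 gave 12, 18 and 23 under quantile normalization, 75th percentile scaling and that minimum. Day 5 gave 1, 1 and 3 under the 3 scalings, 8 with no minimum fold and 3 after removal of the length trend. Day 2 against day 1 gave 9 under quantile normalization, 4 with no minimum TPM and 0 alone. Day 3 against day 2 gave 4 with a pseudocount of 0.1, 7, 7 and 5 under the scalings, 0 with no minimum TPM and 4 with no minimum fold. Day 5 against day 3 gave 21 under quantile normalization and 25 with the 5 TPM minimum. With the drugs, the single day 2 call became 0 under each scaling and with no minimum TPM, and day 3 gave 4, 12 and 10 under quantile normalization, 75th percentile scaling and the 5 TPM minimum. The drug effect on day 3 minus day 1 gave 3 with a pseudocount of 0.1, that minus day 2 gave 1 with the groups alone, and that minus day 5 gave 0, 3 and 5 under the scalings, 9 with the 5 TPM minimum, 2 with no minimum TPM and 9 without the length trend. In organoids, dropping the minimum fold gave 1 member in 8C against ENR, 8C-VE against ENR and 8C against 8C-VE, and 2 in 8C against 8C-V, and 8C libraries 1 to 3 as controls gave 2 without the GSK-3 inhibitor and 1 without bFGF.

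Leaving out 1 library at a time gave 3 to 21 members on day 1 against Normal, 38 to 40 on day 2, 31 to 39 on day 3, 1 to 8 on day 5, 1 to 30 for day 2 against day 1, 0 to 5 for day 3 against day 2 and 39 to 40 for day 5 against day 3. For the drugs it gave 0 to 4, 0 to 1, 10 to 29 and 0 to 0 on days 1, 2, 3 and 5, and 0 to 12, 0 to 0 and 0 to 21 for day 3 minus days 1, 2 and 5. In the 12 organoid comparisons it gave 0 throughout. With the replicate number as a block, the drug effect on day 3 minus day 5 gave 12 members, no member was called in any organoid comparison, and the block changed no other count of members. Crossed pairs, added because the correlation of same-numbered deviations was -0.19 on day 1 and -0.15 on day 2 against Normal, gave 0 and 39 members. Those fits held the libraries of the 2 groups alone.

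Under 75th percentile scaling the sign changed in IR_day3 against Normal for Cdk1 (0.062), Bub3 (0.57), Ect2 (0.19) and in IR_day5 against Normal for Birc5 (-0.085) and in IR_day5 against IR_day3 for Bub3 (-0.30), Pttg1 (-0.30) and in IR+VE_day3 against IR_day3 for Cdk1 (-0.40), Ccna2 (-0.014), Aurka (-0.11), Bub3 (-0.26), Birc5 (-0.31) and in 8C against ENR for Cdk1 (-0.013). Under quantile normalization the sign changed in IR_day3 against Normal for Bub3 (0.48), Ect2 (0.45) and in IR_day5 against IR_day3 for Bub3 (-0.21), Pttg1 (-0.39) and in IR+VE_day3 against IR_day3 for Cdk1 (-0.17), Ccna2 (-0.13), Ccnb1 (-0.018), Ccnb2 (-0.11), Cdc25c (-0.48), Aurka (-0.33), Bub3 (-0.13), Birc5 (-0.21), Nek2 (-0.017). Without mitochondrial genes the sign changed in IR_day3 against Normal for Bub3 (0.073). Over replicate numbers 1 to 3 the sign changed in 8C against ENR for Top2a (0.063), Ccna2 (0.045), Ccnb1 (0.19), Ccnb2 (0.38), Cdc20 (0.12), Plk1 (0.11), Aurkb (0.36), Bub3 (0.27), Birc5 (0.37), Ube2c (0.36), Nek2 (0.096) and in 8C against 8C-VE for Cdc25c (0.17), Birc5 (0.060), Ube2c (0.030). Over replicate numbers 4 to 6 the sign changed in 8C against ENR for Cdk1 (-0.20) and in 8C against 8C-VE for Ccnb1 (0.019). Against 8C libraries 4 to 6 the sign changed in 8C-Pex against 8C for Kif20b (0.12) and in 8C-GSK3i against 8C for Kif20b (0.034), Smc4 (0.036) and in 8C-bFGF against 8C for Kif20b (0.075), Smc4 (0.11). Leaving out single libraries turned the sign of changes that ranged from -0.18 to 0.36 for Ect2 in IR_day1 against Normal, from -0.071 to 0.40 for Birc5 in IR_day5 against Normal, from -0.039 to 1.51 for Mki67 in IR+VE_day1 against IR_day1, from -0.11 to 0.79 for Cdk1 in IR+VE_day3 against IR_day3, from -0.060 to 0.90 for Birc5 in IR+VE_day3 against IR_day3, from -0.049 to 0.18 for Cdk1 in 8C against ENR, from -0.15 to 0.052 for Ccnb2 in 8C against ENR, from -0.24 to 0.029 for Aurkb in 8C against ENR and from -0.21 to 0.0010 for Cdc25c in 8C against 8C-VE.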
